A study of Oryza sativa with 30 samples.

Results

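Protein phosphatases 2C (PP2C) are a large plant family of metal-dependent phosphatases that remove phosphate from serine and threonine. The genes described here are the 129 rice (Oryza sativa) genes whose description in the deposited annotation names a protein phosphatase 2C, of 38978 genes in the larger tables. Members of clade A act in the pathway of abscisic acid (ABA), the hormone of drought and seed dormancy: they hold the SnRK2 kinases inactive, and the ABA receptors bind and block them when the hormone is present, which frees the kinases to switch on bZIP factors and dehydration genes. Other members switch off receptor-like kinases, as KAPP does in Arabidopsis and XB15 does for the resistance kinase XA21 in rice.

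Leaf RNA of 14-day-old seedlings was sequenced in 30 libraries of 16 groups, and all seedlings grew at 26 °C unless chilled. Lines labelled WT (ATM) and atm-1 mutant had 3 untreated libraries each, 3 each taken 6 h after 70 Gy of 60Co gamma rays, and 1 each after 24 h at 4 °C. Lines labelled WT (TOP6A3) and top6a3 mutant had 1 and 3 untreated libraries, and the atr mutant had 1 untreated library and 1 at 70 Gy. Lines labelled WT (DJ) and ku70 mutant had 2 untreated libraries and 2 each 6 h after 40 Gy, and TOP6A3-OE1 (overexpression) and TOP6A3-OE1 atm-2 had 1 library each at 40 Gy, with no untreated library and no promoter named. ATM and ATR are kinases of the DNA damage response, KU70 binds broken DNA ends, and TOP6A3 is a subunit of the topoisomerase VI complex. The tables of 20 libraries (the lines labelled ATM, atm-1, TOP6A3, top6a3 or atr) list the same genes. Those of the other 10 list another set of genes. By these lists they were taken as 2 sets scaled apart, and tests stayed within a set. Nothing in the labels states whether replicates came from separate plants, and p-values measure only the spread between these libraries.

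Recovered depth was 10364400 to 16477100 reads per library. A pair of libraries in the larger set stood apart by having few low-read genes: the share of detected genes counted only 1 to 10 times was 1.53% in the first atm-1 control and 1.70% in the third ATM library at 70 Gy, against 10.8% to 21.8% in the other 18 libraries. In the set of 10 this share was 1.23% to 8.30%, apart from TOP6A3-OE1_atm-2 at 20.8%, and TOP6A3-OE1 had 5.80%. The Rubisco small-subunit genes, which mark green leaf tissue, summed to 885 FPKM or more in every library. The deposited levels were taken as FPKM: reads scaled by gene length and by library size. Levels of the gene that a line is named for did not follow the labels throughout. TOP6A3 itself stood at 1899 FPKM in the library labelled TOP6A3, at 4.49 FPKM in the one labelled TOP6A3-OE1 and at 3.57 to 4.03 FPKM in the libraries labelled top6a3. KU70 measured 24.7 and 37.8 FPKM in the ku70 controls, above the 5.31 and 0.319 FPKM of the DJ controls. Untreated ATM leaves had 4.12 to 6.19 FPKM of ATM transcript, and untreated atm-1 leaves had 0.850, 4.54 and 5.23 FPKM. It was at 2.26 to 5.86 FPKM in ATM and 3.38 to 5.19 FPKM in atm-1 at 70 Gy, and at 3.35 FPKM in TOP6A3-OE1 and 5.75 FPKM in TOP6A3-OE1_atm-2. ATR was at 0.206 and 1.12 FPKM in the untreated and irradiated atr libraries and at 1.95 to 3.13 FPKM in the ATM controls. ATM transcript thus did not separate the lines named for it, a level alone does not show whether an allele works, and all libraries are named below by their labels only.

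Of the 129 members, 77 carried a PP2C-type domain in the annotation's own domain field and 52 did not. The absence is an annotation fact, since OsPP2C50 and OsABIL2, both well-known clade A phosphatases, are among the 52. The members lay on all 12 chromosomes, most on chromosome 2 with 30 and fewest on chromosome 8 with 2. As many as 45 overlapped another member on the opposite strand, in 23 pairs. The library kit kept strand, but whether the authors counted by strand is not given in the sources used here, so levels of both genes of such a pair are uncertain.

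Levels in leaves differed widely: 47 members had a median of 10 FPKM or more over the 20 libraries, 52 had a median under 1 FPKM and 13 had no read in any of the 20. The 5 highest medians belonged to OsPP2C10 at 111 FPKM, Os10g0213100 at 103, OsPP2C34 at 95.7, Os02g0151800 at 68.1 and OsPP2C05 at 67.0. In the set of 10 libraries the 5 highest were OsPP2C05 at 193 FPKM, OsPP2C10 at 98.7, OsPP2C60 at 89.97, OsBIPP2C1 at 84.0 and OsPP2C47 at 77.6. OsPP2C60 varied little within the larger set, from 47.1 to 70.2 FPKM, whereas OsPP2C34 ran from 50.5 to 598 FPKM. Os10g0213100 was listed at 0 in TOP6A3-OE1 and TOP6A3-OE1_atm-2, and stood between 20.6 and 174 FPKM in the other 28 libraries.

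Tests across all genes were run on log2(FPKM + 1) with limma, and genes needed at least 2 libraries with 1 FPKM or more. That filter kept 98 members in the larger set (31 were too low) and 87 of the 123 members listed in the smaller one. Adjusted p-values are Benjamini-Hochberg values over all genes of a comparison, called under 0.05, and fold changes on this scale understate those of low genes. The bar plot of called shares sets the members beside all genes in every tested comparison.

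**Figure D1:**
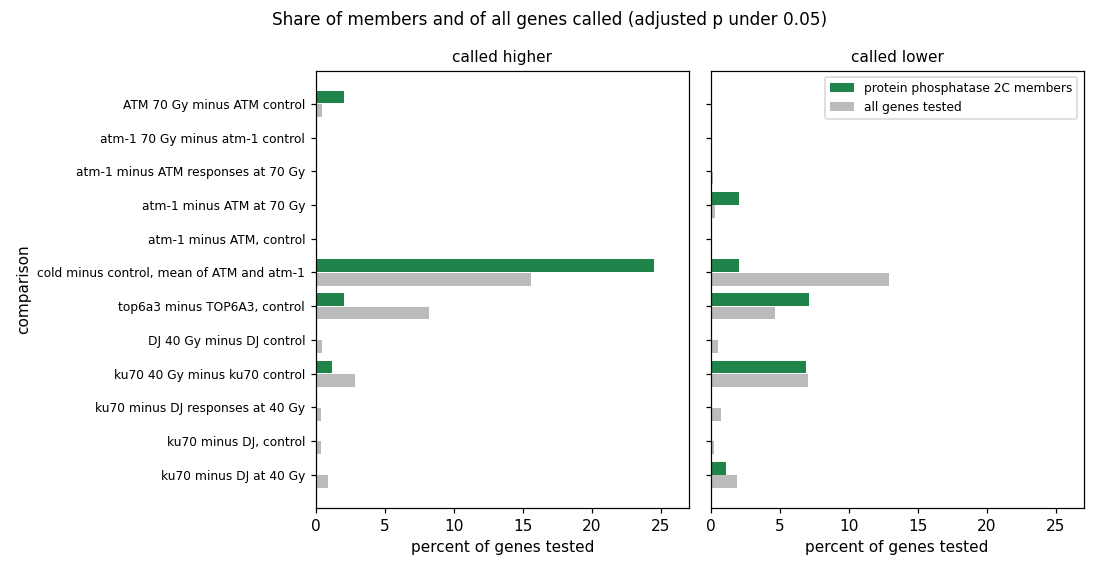
Percent of tested genes called higher (left) or lower (right) in each comparison, for the members (green) and for all genes tested (grey). The tallest green bar is cold, where 24.5% of members were called higher and 2.04% lower, against 15.6% and 12.9% of all genes.

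After 70 Gy, transcripts of OsPP2C55 and OsKAPP rose in the ATM line, and neither was called in the atm-1 line. OsPP2C55 (Os06g0526700, chromosome 6, 19527051 to 19529692, minus strand, on a build that the sources do not name) encodes a predicted PP2C. OsKAPP (Os07g0211400, chromosome 7, 6052570 to 6060083, plus strand) is the rice gene named for the kinase-associated phosphatase. They were the 2 members called among 98, or 2.04%, where 0.431% of all genes were called higher, 0.0936% lower and 0.525% either way.

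Untreated ATM leaves had 5.99, 7.66 and 7.03 FPKM of OsPP2C55, and irradiated ones had 52.7, 38.0 and 20.9 FPKM. All 3 irradiated libraries lay above all 3 controls, and the lowest of them was replicate 3, the library with few low-read genes. The level rose from 6.89 ± 0.840 to 37.2 ± 15.9 FPKM (SD, n = 3 and 3), a log2 difference of 2.19 (SE 0.288, limma adjusted p = 0.00310). OsKAPP was at 8.32, 7.30 and 9.62 FPKM in the controls and at 22.7, 22.5 and 19.9 FPKM at 70 Gy, again without overlap. Its mean rose from 8.41 ± 1.16 to 21.7 ± 1.58 FPKM, a log2 difference of 1.28 (SE 0.201, limma adjusted p = 0.0124). Leaving out ATM control replicate 1 or 2, or ATM 70 Gy replicate 1 or 2, ended the OsKAPP call (limma adjusted p = 0.0682, 0.0622, 0.0659 and 0.0653), while the OsPP2C55 call held without any 1 of the 6 libraries. In a fit of these 2 groups alone with the replicate number as a block, neither was called (limma adjusted p = 0.121 for OsPP2C55 and 0.142 for OsKAPP). Summed Rubisco small-subunit markers were at 7726 to 11928 FPKM in the ATM controls and at 4476 to 6220 FPKM in ATM at 70 Gy, without overlap, and at 3745 to 9704 FPKM and 5073 to 7673 FPKM in the same atm-1 groups, which overlapped. The other leaf lists overlapped in both lines. In ATM, light-harvesting genes summed to 15853 to 21093 FPKM in controls and 18211 to 27817 FPKM at 70 Gy. Oxygen-evolving genes summed there to 4369 to 6843 FPKM and 3752 to 4655 FPKM. In atm-1 the light-harvesting sums were 11077 to 20011 FPKM and 17509 to 29195 FPKM, and the oxygen-evolving sums 2211 to 4707 FPKM and 4084 to 6431 FPKM. Their part in the members' changes was not tested.

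In the atm-1 line OsPP2C55 stood at 9.57, 7.47 and 6.67 FPKM in the controls and at 6.40, 9.63 and 7.93 FPKM at 70 Gy, groups that overlapped fully. The log2 difference was 0.01 with a 95% interval of -0.61 to 0.64 (limma adjusted p = 1). OsKAPP was at 6.31, 7.77 and 8.93 FPKM in those controls and at 7.93, 9.75 and 9.55 FPKM at 70 Gy, a log2 difference of 0.22 with an interval of -0.21 to 0.66 (limma adjusted p = 0.784). None of the 98 members was called in the atm-1 response, where 0% of all genes were called. By limma 7 members (7.14%, beside 7.64% of all genes) had an unadjusted p under 0.05, and limma-voom on the recovered reads called 0 of all genes. OsPP2C11 went from 16.4 ± 5.76 to 43.0 ± 3.04 FPKM (limma adjusted p = 0.555) and OsPP2C12 from 32.9 ± 20.7 to 85.5 ± 2.11 FPKM (limma adjusted p = 0.566), and these 2 were named after their values were seen.

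At 70 Gy the irradiated lines differed in these 2 genes directly. OsPP2C55 was lower in atm-1 than in ATM by a log2 difference of -2.01 (SE 0.288, limma adjusted p = 0.00655) and OsKAPP by -1.18 (SE 0.201, limma adjusted p = 0.0263). They made up 2 of 98 members called, with 0.33% of all genes called, all of them lower. Without atm-1 70 Gy replicate 1 the limma adjusted p of OsPP2C55 was 0.0526. In a fit of these 2 groups alone with the replicate number as a block, neither was called (limma adjusted p = 0.385 for OsPP2C55 and 0.4035 for OsKAPP). Leaving out any 1 library of these groups other than ATM 70 Gy replicate 3 ended the OsKAPP call (limma adjusted p from 0.0975 to 0.1799).

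The interaction, atm-1 response minus ATM response, was -2.18 for OsPP2C55 (SE 0.407, 95% interval -3.06 to -1.29, limma adjusted p = 0.0733) and -1.05 for OsKAPP (SE 0.284, limma adjusted p = 0.435). Neither passed, and 0 of 98 members were called where 0.167% of all genes were, all lower. By limma 10 members (10.2%, beside 8.41% of all genes) had an unadjusted p under 0.05, and limma-voom called 0 members and 0.0163% of all genes. Without ATM 70 Gy replicate 3 the OsPP2C55 interaction was -2.53 and passed (limma adjusted p = 0.00415). Untreated leaves of atm-1 and ATM gave 0 calls among the members and 0% among all genes, with 3 members (3.06%, beside 5.41% of all genes) at an unadjusted limma p under 0.05 and 0 genes called by limma-voom.

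OsPP2C56 (Os06g0526800, chromosome 6, 19531822 to 19541910), the next listed gene beside OsPP2C55 on the same strand and also a PP2C, did not share the ATM-line rise. Its values were 11.2, 18.4 and 5.72 FPKM in untreated ATM leaves and 8.496, 7.12 and 7.68 FPKM after irradiation, and the groups overlapped (log2 -0.42, SE 0.537, limma adjusted p = 0.809). The point plot of these 3 genes shows every library.

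**Figure D2:**
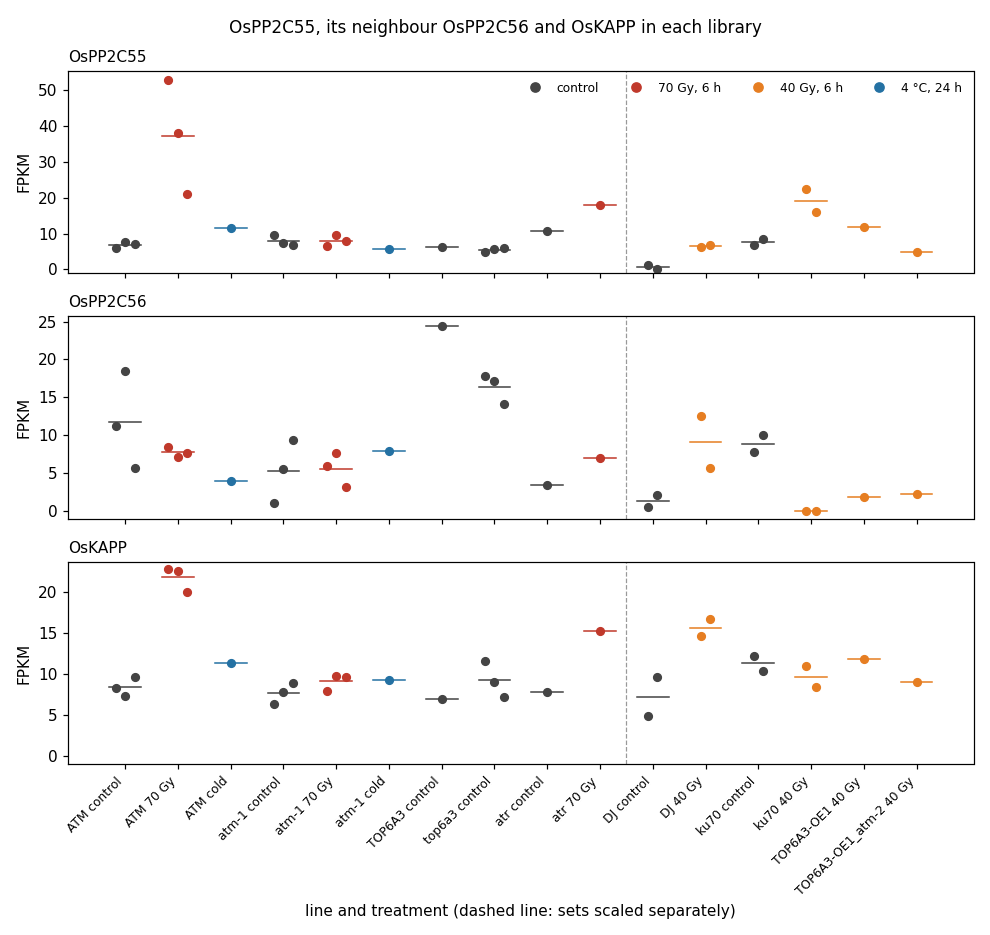
FPKM of OsPP2C55, OsPP2C56 and OsKAPP in each of the 30 libraries (points; short lines are group means), with groups along the x axis and the sets taken as scaled separately on each side of the dashed line. The ATM 70 Gy libraries lie at 20.9 to 52.7 FPKM for OsPP2C55, where 1 ku70 40 Gy library also reaches 22.3 FPKM, and hold the 3 highest OsKAPP values.

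Across the other groups OsPP2C55 stood at 4.90 to 6.13 FPKM in the libraries labelled TOP6A3 and top6a3, at 10.6 FPKM in untreated atr and 17.9 FPKM in atr at 70 Gy, and at 11.5 and 5.60 FPKM in the cold ATM and atm-1 libraries. Untreated OsKAPP levels were alike across lines of the larger set, from 6.31 to 11.5 FPKM, and atr at 70 Gy had 15.2 FPKM against 7.79 FPKM untreated. For the single atr libraries these are log2 differences of 0.71 and 0.88, with no test. In the order of group means in the larger set, ATM at 70 Gy came first and atr at 70 Gy second for both genes. The remaining groups, from 5.44 to 11.5 FPKM for OsPP2C55 and from 6.92 to 11.4 FPKM for OsKAPP, followed closely, and none of the tests between them was called for either gene.

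Chilling at 4 °C for 24 h raised 24 of the 98 members and lowered 2, while 15.6% of all genes were called higher, 12.9% lower and 28.4% either way. The members' shares were 24.5% higher and 2.04% lower, and their median log2 difference was 0.35 against -0.01 over all genes. In 22 of the 24, both cold libraries lay above all 6 controls. The 24 were called from these same libraries, so this separation adds no support. Each line gave 1 cold library, so the fit averages both and assumes that they vary like the other groups. In either line alone, with the spread of its 1 cold library taken from the other groups, 15 members were called in ATM and 15 in atm-1, each 15.3% of members, beside 14.2% and 15.6% of all genes. Without the 2 libraries with few low-read genes the calls were 37 members higher and 5 lower, beside 23.6% and 24.3% of all genes.

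Among the members called higher, OsPP2C32 and OsPP2C34 had the highest levels in the cold, both with the annotated phosphatase domain. OsPP2C32 (Os03g0292100, chromosome 3, 10163441 to 10165442) had 59.6, 20.8 and 76.9 FPKM in untreated ATM leaves, 66.7, 82.0 and 50.8 FPKM in untreated atm-1 leaves, and 451 and 608 FPKM in the cold ATM and atm-1 libraries. Cold and control did not overlap. The mean rose from 59.5 ± 22.1 (n = 6) to 529 ± 111 FPKM (n = 2), a log2 difference of 3.23 (SE 0.372, limma adjusted p = 5.69e-05).

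OsPP2C34 (Os03g0761100, chromosome 3, 31472117 to 31474811) had 88.3, 50.5 and 91.0 FPKM in untreated ATM leaves and 307, 104 and 80.2 FPKM in untreated atm-1 leaves, where replicate 1 is the library that stood apart. The cold libraries had 431 and 598 FPKM, above all controls (log2 2.32, SE 0.437, limma adjusted p = 0.00187). OsPP2C10, the member with the highest median, rose from 119 ± 29.0 to 274 ± 46.3 FPKM (log2 1.22, SE 0.179, limma adjusted p = 3.46e-04).

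XB15 (Os03g0821300), the phosphatase that binds and dampens the XA21 immune receptor, had 5.01, 4.29 and 7.22 FPKM in untreated ATM leaves, 6.44, 8.41 and 4.80 FPKM in untreated atm-1 leaves, and 32.7 and 38.6 FPKM in the cold. Every cold value lay above every control. The log2 difference was 2.41 (SE 0.277, limma adjusted p = 5.65e-05).

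The 2 largest fitted rises belonged to genes that overlap another member. OsENODL21 (Os09g0557900), a member without the domain whose name is that of an early nodulin-like protein, lies opposite OsPP2C70. It was at 0 to 0.235 FPKM in the 6 controls and at 8.92 and 14.2 FPKM in the cold (log2 3.50, SE 0.134, limma adjusted p = 2.37e-09), while OsPP2C70 itself was at 9.28 to 14.3 FPKM in the controls and at 10.3 and 11.4 FPKM in the cold. Os04g0449450, opposite OsPP2C40, rose by a log2 difference of 3.24 (limma adjusted p = 1.80e-04), and OsPP2C40 rose as well (log2 2.48, limma adjusted p = 0.00263). OsPP2C40 went from 2.79 ± 1.48 to 18.1 ± 4.81 FPKM and Os04g0449450 from 2.85 ± 1.16 to 39.9 ± 30.35 FPKM. Which strand these reads came from cannot be told apart here.

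OsPP123 on chromosome 12 rose from 0.660 ± 0.591 to 10.1 ± 6.47 FPKM (log2 2.68, limma adjusted p = 8.51e-05). OsPP2C73 on chromosome 11 rose from 0.0914 ± 0.205 to 2.95 ± 1.94 FPKM (log2 1.78, limma adjusted p = 9.62e-06). The annotation matches both to the same phosphatase, OsPP2C73, and reads may be split between these similar copies. Besides the genes above, the other 15 members called higher had log2 differences from 0.56 to 2.31. OsPP2C28, OsPP2C64 and OsPP2C69 among them lost their calls without ATM control replicate 1 (limma adjusted p = 0.0647, 0.0763 and 0.0537). In all, 6 of the 24 carried no annotated domain.

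Both members that fell were low. OsPP2C78 (Os12g0580900) fell from 3.72 ± 1.39 to 0.896 ± 0.553 FPKM (log2 -1.29, SE 0.266, limma adjusted p = 0.00324), and Os02g0599100 from 1.11 ± 0.227 to 0.464 ± 0.00598 FPKM (log2 -0.52, SE 0.174, limma adjusted p = 0.0424). The second call was lost without ATM control replicate 2 or 3 or atm-1 control replicate 2 (limma adjusted p = 0.0676, 0.0794 and 0.0550). Their cold and control libraries did not overlap.

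**Figure D3:**
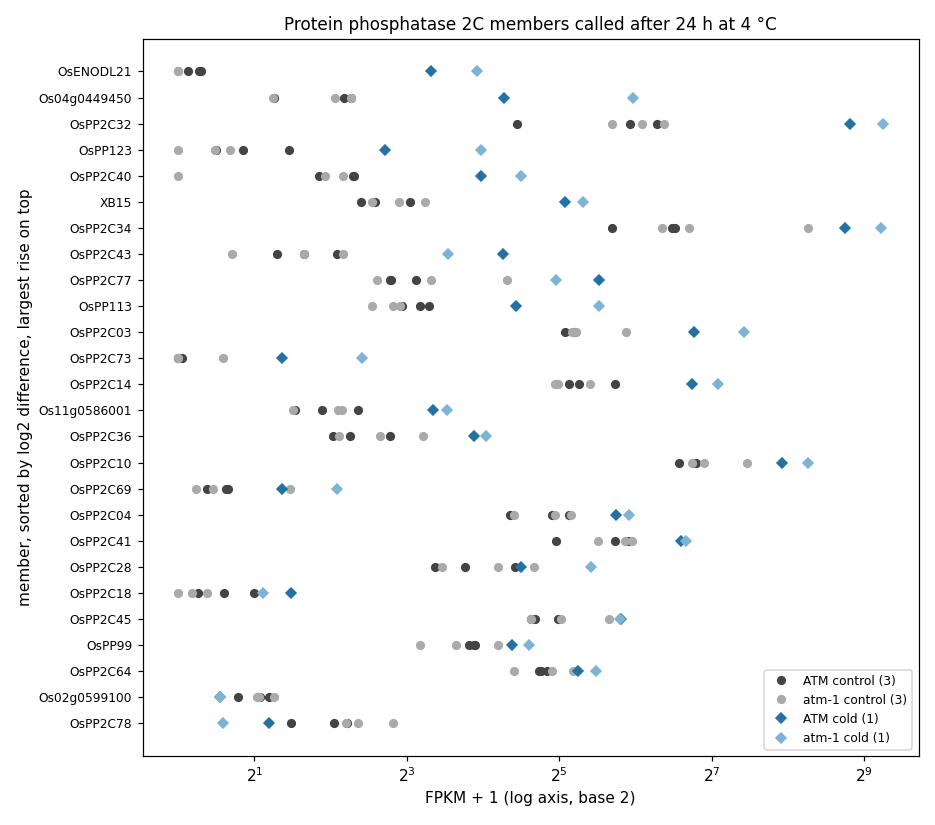
FPKM + 1 on a log axis (base 2) of the 26 members called after 24 h at 4 °C, in 3 ATM and 3 atm-1 controls (circles) and in the cold ATM and atm-1 libraries (diamonds). For 22 of the 24 that rose both diamonds lie right of every circle, and OsPP2C28 and OsPP2C69 are the exceptions.

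Some leaf markers moved with the cold libraries, and not all alike. The 25 light-harvesting genes summed to 1126 FPKM in cold ATM and 2753 FPKM in cold atm-1, and to between 11077 and 21093 FPKM in the 6 controls. Rubisco small-subunit genes summed to 2057 and 4331 FPKM in cold ATM and atm-1, against 3745 to 11928 FPKM in the controls. Oxygen-evolving genes summed to 1871 and 3399 FPKM, against 2211 to 6843 FPKM. For these lists cold ATM lay below all controls and cold atm-1 lay within their range. Summed markers of proliferating cells were at 311 and 334 FPKM in the cold and at 659 to 1369 FPKM in the controls. Summed epidermis and cuticle markers were higher in the cold, at 287 and 361 FPKM against 127 to 220.2 FPKM. Their part in the members' changes was not tested. In bulk leaf RNA, fewer cells of a type and less RNA per cell cannot be told apart.

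None of the 10 clade A members, the ABA co-receptors, was called in cold, although 7 were higher and 3 lower by the fit, with a median log2 difference of 0.17. OsPP2C06/OsABI2 (Os01g0583100) had 53.6, 45.4 and 78.9 FPKM in untreated ATM leaves, 367, 34.8 and 77.9 FPKM in untreated atm-1 leaves and 112 and 158 FPKM in the cold. Only the one high atm-1 control lay above the cold libraries. OsPP2C30, which works with an ABA receptor and the kinase SAPK2 in rice, was at 6.84 and 6.39 FPKM in the cold, at 118 FPKM in atm-1 control replicate 1 and at 0.737 to 2.38 FPKM in the other 5 controls. Without the 2 libraries with few low-read genes 4 of the 10 were called higher in cold.

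The pathway partners gave mixed calls in cold. Among the SnRK2 kinases 2 of 10 rose, SAPK2 (log2 1.71, limma adjusted p = 0.00642) and SAPK8 (log2 0.89, limma adjusted p = 0.00150), and none fell. Of 8 ABA receptors tested 1 fell, OsPYL/RCAR10 (log2 -1.57, limma adjusted p = 1.70e-05). Among 9 ABF-type bZIP factors BZIP23 rose (log2 2.05, limma adjusted p = 0.0403) and HBF2 fell (log2 -1.18, limma adjusted p = 0.00859). None of 8 dehydration targets, the RAB and LEA genes, was called, and 7 of the 8 were lower in the fit, with a median of -1.73.

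The clade A genes also marked out a library. In atm-1 control replicate 1, PP2C1 (Os09g0325700, annotated as OsPP2C68) stood at 485 FPKM against 14.9 and 8.72 FPKM in the other 2 atm-1 controls. OsPP2C06/OsABI2 stood there at 367 FPKM, OsPP2C30 at 118 FPKM, OsPP2C50 at 79.6 FPKM and OsPP15, annotated as OsPP2C09, at 15.9 FPKM. Each of these was the highest of the 6 controls of both lines. OsABIL2, in contrast, was at 34.5 FPKM there and at 30.4 and 31.6 FPKM in the other 2. High values in this library were not limited to clade A. OsPP2C34, given above, was also the highest there among the controls of both lines. The bZIP factor BZIP23 stood there at 260 FPKM, against 20.8 and 27.3 FPKM in the other 2 atm-1 controls.

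The same library held 1687 FPKM of the dehydration target OsLEA3-1, against 65.4 and 1.64 FPKM in the other 2 atm-1 controls and 313, 393 and 391 FPKM in the ATM controls. In ATM 70 Gy replicate 3, the other library with few low-read genes, PP2C1 was at 97.1 FPKM against 22.6 and 22.5 FPKM, and OsLEA3-1 at 720 FPKM against 38.0 and 7.22 FPKM. OsPP2C30 was at 9.60 FPKM there, against 3.01 and 1.68 FPKM.

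These libraries bear on the clade A values at 70 Gy. In the atm-1 response all 10 clade A members were lower by the fit, none was called, and the median was -0.60 against 0.03 over all genes. Without atm-1 control replicate 1 it was 7 of 10 and a median of -0.28. In the ATM response 5 were higher and 5 lower, none called, with a median of -0.14. Without ATM 70 Gy replicate 3 it was 2 higher and 8 lower, again none called, and a median of -0.42.

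**Figure D4:**
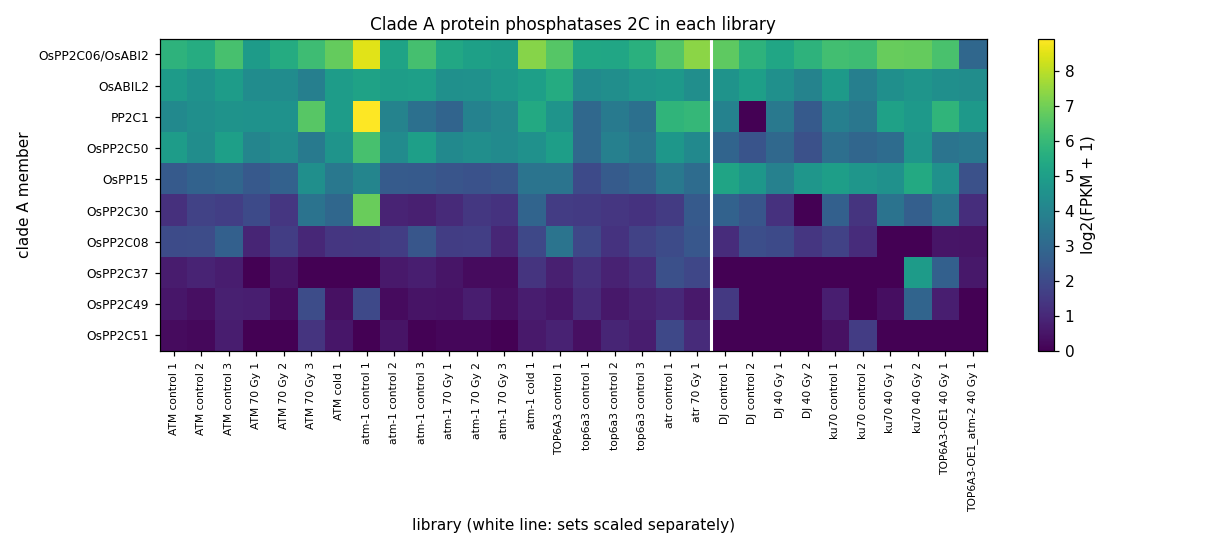
Levels of the 10 clade A members in each of the 30 libraries as log2(FPKM + 1), from 0 (dark) up to the highest level (yellow); the white line parts the sets taken as scaled separately. The column of atm-1 control replicate 1 holds the highest values of PP2C1, OsPP2C06/OsABI2, OsPP2C30 and OsPP2C50.

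Between the top6a3 libraries and the single library labelled TOP6A3, 7 of 98 members were lower and 2 higher, with 4.7% of all genes called lower, 8.18% higher and 12.9% either way. The single library is assumed to vary like the other groups, and no error of its own can be given. Tissue markers differed too: summed light-harvesting genes were at 8929 FPKM in TOP6A3 and 22083 to 38198 FPKM in top6a3, Rubisco small-subunit genes at 8545 against 3173 to 3945 FPKM, epidermis and cuticle genes at 159 against 291 to 309 FPKM, and vascular and secondary wall genes at 371 against 669 to 828 FPKM. Their part in the members' differences was not tested. OsPP2C43 (Os04g0584300) was at 11.6 FPKM in the TOP6A3 library and at 0.384, 0.588 and 0.2996 FPKM in the top6a3 libraries (log2 -3.15, SE 0.565, limma adjusted p = 0.00269). OsENODL21 was at 3.38 FPKM in TOP6A3 and at 0, 0 and 0.0873 FPKM in top6a3 (log2 -2.09, limma adjusted p = 9.52e-06). Untreated atr had 0.0785 FPKM of it, and the ATM and atm-1 controls, given above, were also low, so the TOP6A3 library was the one apart. OsPP2C28 was higher, at 39.6, 48.0 and 41.8 FPKM against 13.1 FPKM (log2 1.65, limma adjusted p = 0.0307), and so was OsPP2C33, at 1.44, 2.08 and 1.78 FPKM against 0 (limma adjusted p = 0.0309). Both rises were lost with libraries left out, OsPP2C28 without any 1 of the 3 top6a3 libraries (limma adjusted p from 0.0511 to 0.0706) and OsPP2C33 without replicate 2 or 3 (limma adjusted p = 0.0690 and 0.0626).

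Os02g0282600 (log2 -2.11), Os03g0104100 (log2 -1.92) and Os07g0228000 (log2 -1.06) were also called lower, with limma adjusted p-values of 1.14e-07, 1.24e-05 and 0.0456, and the last of these calls did not hold without any 1 of the top6a3 libraries (limma adjusted p from 0.0558 to 0.0976). Clade A supplied 2 of the 7. OsPP2C08 was at 9.85 FPKM in TOP6A3 and at 2.76, 1.46 and 2.36 FPKM in top6a3 (log2 -1.79, limma adjusted p = 0.0251), a call lost without top6a3 replicate 2 (limma adjusted p = 0.0632). OsABIL2, which acts in ABA signalling of rice roots and seeds, was at 43.7 FPKM against 18.3, 20.4 and 24.8 FPKM (log2 -1.02, limma adjusted p = 0.0205). For OsPP2C08 and OsABIL2 the TOP6A3 library was the highest of the 20, whose medians were 2.24 and 25.4 FPKM. The other 8 clade A members were not called, and 8 of the 10 were lower in the fit, with a median of -0.996 against 0.06 over all genes. The kinase SAPK9, a target of clade A phosphatases, was at 166 FPKM in TOP6A3 and at 7.26 to 11.2 FPKM in top6a3 (log2 -3.99, limma adjusted p = 1.00e-04). SAPK9 was high in untreated atr too, at 153 FPKM, and at 12.3 to 38.1 FPKM in untreated ATM and atm-1 leaves. It was the 1 of 10 SnRK2 kinases called, and 1 of 8 ABA receptors was called, OsPYL/RCAR4, which was higher (log2 2.48, limma adjusted p = 0.0414). Without the 2 libraries with few low-read genes, which are in neither group but set the shared spread, the calls were 19 members lower and 6 higher, beside 15.9% and 16.8% of all genes.

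A handful of members separated the lines of the larger set. In 5 of the 98, all 6 libraries of the TOP6A3, top6a3 and atr lines exceeded all 14 libraries of the ATM and atm-1 lines by a log2(FPKM + 1) of 1 or more, and in 0 the reverse held. That is 5.10% of members beside 3.27% of all genes, with 0.423% in reverse. These 5 were picked by the pattern, and no test was made. OsPP2C19 (Os02g0599700) was at 16.4 to 26.4 FPKM in the 6 libraries and at 0.0730 FPKM or less in the 14.

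Os01g0728400 was at 45.1 to 84.5 FPKM against at most 0.585 FPKM. Os03g0104100, Os07g0228000 and Os02g0282600 had lowest values of 6.15, 8.15 and 1.02 FPKM in the 6 libraries, against highest values of 0.0334, 1.30 and 0 FPKM in the 14. In the second set, Os01g0728400 was at 15.2 to 71.4 FPKM in the 8 DJ and ku70 libraries and at 0 in both TOP6A3-OE1 libraries. None of the 5 carried the annotated domain.

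At 40 Gy in DJ, 0 of 87 members were called, with 0.481% of all genes called higher, 0.546% lower and 1.03% either way. By limma 10 members (11.5%, beside 13.1% of all genes) had an unadjusted p under 0.05, and limma-voom called 0 members and 0.264% of all genes. OsPP2C55 was at 1.22 and 0 FPKM in the DJ controls and at 6.29 and 6.75 FPKM at 40 Gy (log2 2.34, SE 0.504, limma adjusted p = 0.136), and OsKAPP at 4.89 and 9.55 against 14.6 and 16.6 FPKM (log2 1.07, SE 0.3797, limma adjusted p = 0.330). Neither gene's groups overlapped, and neither passed. With 2 libraries a side a lack of overlap is a weak sign, and many other uncalled members were apart too, in both directions. Summed leaf markers were lower in DJ at 40 Gy than in its controls, without overlap. Rubisco small-subunit genes were at 2791 to 3902 against 9866 to 13227 FPKM, and light-harvesting genes at 13259 to 17283 against 33461 to 41734 FPKM. Oxygen-evolving genes were at 1450 to 1653 against 4646 to 6042 FPKM. Their part in the members' differences was not tested. The lowest p among the members was that of OsPP2C65 (Os07g0646100), listed at 0 in both controls and at 5.83 and 5.54 FPKM after irradiation (log2 2.74, limma adjusted p = 0.0618). In the authors' deposited table of selected genes for DJ at 40 Gy, OsPP2C65 is given a log2 fold change of 9.19 with an adjusted p of 0.00700. With both controls listed at 0, the size of a fold change depends on the scale and pseudocount. The values 2.74 and 9.19 can therefore not be compared directly.

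In the libraries labelled ku70, 40 Gy was followed by 1 member higher and 6 lower of 87, with 2.84% of all genes called higher, 7.08% lower and 9.92% either way, so the members' counts were no higher than the background. OsPP2C32, also called higher in the cold, rose from 11.5 and 9.75 FPKM to 78.1 and 61.5 FPKM (log2 2.60, SE 0.296, limma adjusted p = 0.0114). OsBIPP2C1, named for its induction by the defence activator benzothiadiazole, fell from 139 and 142 FPKM to 16.1 and 40.6 FPKM (log2 -2.41, SE 0.431, limma adjusted p = 0.0325).

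OsPP2C19 fell from 19.9 and 25.7 FPKM to 1.07 and 0 FPKM (limma adjusted p = 0.0129). OsPP2C56 was at 7.73 and 10.005 FPKM before and listed at 0 in both libraries after (limma adjusted p = 0.0310). OsPP2C01, OsPP2C38 and OsPP23 fell by 2.39, 2.10 and 1.36 on the log2 scale (limma adjusted p = 0.0375, 0.0438 and 0.0410).

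The libraries labelled ku70 40 Gy had 25651 and 25713 genes listed at 0 and correlated with each other at a Pearson's r of 0.750 across genes, the lowest replicate correlation in that set. Their summed light-harvesting markers were 9145 and 11608 FPKM, against 63302 and 66190 FPKM in the ku70 controls, and the part of this in the members' changes was not tested. With either ku70 control library left out, 0 members were called, and the limma adjusted p of OsPP2C32 was 0.0674 and 0.0797.

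None of the 9 clade A members tested was called in the ku70 response, 8 were higher in the fit, and their median was 0.79 against -0.29 over all genes. Without ku70 40 Gy replicate 2 only 7 were tested, 5 of them higher, with a median of 0.083 and no call. In DJ 3 were higher and 5 lower, again with no call. OsPP2C37 was at 28.7 FPKM in ku70 40 Gy replicate 2 and at 0 in replicate 1, so these libraries differed widely in it. Of the 10 SnRK2 kinases, SAPK7 was called higher (log2 1.93, limma adjusted p = 0.0208), and SAPK5 (log2 -1.25, limma adjusted p = 0.0325) and SAPK9, listed at 0 in both irradiated libraries (limma adjusted p = 0.0171), lower. The dehydration target OsLEA3-1 was at 0 in both ku70 controls and at 32.6 and 21.0 FPKM at 40 Gy (limma adjusted p = 0.0486).

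OsPP2C55 was at 6.83 and 8.54 FPKM in the ku70 controls and at 22.3 and 15.9 FPKM at 40 Gy (log2 1.20, limma adjusted p = 0.212). OsKAPP was at 12.2 and 10.3 FPKM before and at 10.9 and 8.42 FPKM after (log2 -0.21, limma adjusted p = 0.790). OsPP2C56, called lower in ku70, was at 0.462 and 2.10 FPKM in the DJ controls and at 12.5 and 5.69 FPKM in DJ at 40 Gy (limma adjusted p = 0.206). Its interaction was -5.45 (SE 0.812, limma adjusted p = 0.0572), a value that depends on the pseudocount since both irradiated ku70 libraries are at 0. No member passed that test, where 0.39% of all genes were called higher, 0.763% lower and 1.15% either way. By limma 17 members (19.5%, beside 15.5% of all genes) had an unadjusted p under 0.05, and limma-voom called 4 members (4.60%), all lower, beside 2.56% of all genes lower.

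Comparing ku70 with DJ, 0 of 87 members were called in untreated leaves, where 0.395% of all genes were called higher, 0.225% lower and 0.62% either way, with 7 members (8.05%, beside 7.93% of all genes) at an unadjusted limma p under 0.05 and 0 genes called by limma-voom. At 40 Gy 1 was lower, with 0.863% of all genes called higher, 1.89% lower and 2.75% either way. It was OsPP2C19, at 15.8 and 13.0 FPKM in DJ and 1.07 and 0 FPKM in ku70 (limma adjusted p = 0.0398), and leaving out either DJ 40 Gy library ended that call (limma adjusted p = 0.108 and 0.0941).

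For single pairs of libraries no test could be made, and members were counted past a log2(FPKM + 1) difference of 1. In the atr mutant at 70 Gy 7 of 90 members were higher and 4 lower than in its untreated library, with 7.4% of all genes higher, 14.4% lower and 21.8% either way. OsPP2C29 went from 24.4 to 68.8 FPKM, OsPP2C34 from 91.8 to 218 FPKM, OsPP2C64 from 18.0 to 42.9 FPKM, OsPP2C03 from 30.4 to 64.6 FPKM and OsPP2C32 from 63.4 to 133 FPKM. Lower values were seen for Os02g0282600, from 6.06 to 1.02 FPKM, Os02g0151800, from 81.4 to 31.9 FPKM, and OsPP2C05, from 74.2 to 33.6 FPKM. From the untreated to the irradiated atr library, summed light-harvesting markers went from 8678 to 1925 FPKM, Rubisco small-subunit markers from 7598 to 971 FPKM, oxygen-evolving markers from 3259 to 371 FPKM, and the share of detected genes with 1 to 10 reads from 16.8% to 10.8%. Their part in these differences was not tested.

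Between TOP6A3-OE1_atm-2 and TOP6A3-OE1, both at 40 Gy, 9 of 77 members were higher and 11 lower, with 15.9% of all genes higher, 13.6% lower and 29.4% either way. Clade A made up the 4 largest falls. OsPP2C06/OsABI2 was at 6.84 FPKM in TOP6A3-OE1_atm-2 and 81.2 FPKM in TOP6A3-OE1, OsPP15 at 3.60 and 22.1 FPKM, OsPP2C30 at 1.24 and 10.04 FPKM, and OsPP2C37 at 0.499 and 5.72 FPKM. OsPP2C72 followed, at 10.2 and 32.2 FPKM. PP2C1 was lower as well, at 26.5 and 56.1 FPKM. Not all of clade A fell: OsABIL2 was at 19.9 and 20.9 FPKM, and OsPP2C50 at 11.0 and 9.78 FPKM. OsPP2C55 was at 4.76 FPKM in TOP6A3-OE1_atm-2 and 11.7 FPKM in TOP6A3-OE1 (log2 -1.15), and OsKAPP at 8.99 and 11.8 FPKM (log2 -0.35).

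Higher in TOP6A3-OE1_atm-2 were OsPP2C01, at 59.5 FPKM against 9.93 FPKM, OsPP2C61, at 31.9 against 8.89 FPKM, OsBIPP2C1, at 81.7 against 32.4 FPKM, Os10g0408700, at 35.9 against 15.7 FPKM, and OsPP2C38, at 69.6 against 32.7 FPKM. Each side is 1 library, and summed light-harvesting markers were at 68849 FPKM in TOP6A3-OE1_atm-2 and 13553 FPKM in TOP6A3-OE1, epidermis and cuticle markers at 248 and 556 FPKM, and the share of detected genes with 1 to 10 reads at 20.8% and 5.80%. Their part in these differences was not tested.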

How the data were processed

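The authors deposited gene levels, taken here as FPKM, with gene lengths, in 5 tables. No source names the aligner, counting tool, strand setting or genome build. The unit was read from the values: level times gene length gave whole multiples of 1 step per column (100% of values within 0.01), so reads were recovered. This shows scaling by length and by a factor per column, and does not by itself name the unit. The number of library columns with no sample was 0. Log2 fold changes and adjusted p-values from the authors' deposited table of selected genes were used for OsPP2C65 only.

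Tables listing the same genes were joined (38978 and 40718 genes) and fitted as 2 sets on log2(FPKM + 1) by limma-trend (limma 3.58.1, R 4.3.3), all groups of a set sharing 1 estimate of the spread. A filter of 1 FPKM in at least 2 libraries kept 24582 and 23063 genes, with 10 and 4 residual degrees of freedom. P-values were two-sided. The fit was also run on simulated data with independent normal noise of equal spread across libraries. Such data hold no outlying libraries, so they cannot show how these affect the calls, and no conclusion is drawn from them. Python 3.11.15, pandas 2.3.3, numpy 2.4.6 and matplotlib 3.10.9 were also used. Alternatives were another pseudocount, no filter, limma-voom on recovered reads, rescaling by trimmed means of M values, library weights, libraries left out and a replicate block.

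Members, gene lists and named genes were chosen with earlier results of these data known. Named were OsPP2C55 and OsKAPP in every group, the 10 clade A members, up to 6 called rises and 6 falls per comparison, up to 5 each way for single libraries with 5 FPKM or more in the higher one, and the 5 highest medians per set. Genes outside this rule were named after their values were seen: OsPP2C11, OsPP2C12, OsPP2C28, OsPP2C56, OsPP2C65, OsPP2C69, OsPP2C70, OsPP2C73 and those that separated the lines. Leaf, proliferating-cell, epidermal and vascular markers were summed. The epidermal markers ran from 117 to 556 FPKM and the vascular ones from 321 to 902 FPKM over all libraries.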

Additional observations from a re-analysis of the deposited data

How the results depend on the processing

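Of 51 gene and comparison values named or tested singly, 19 kept their direction and call under all alternatives run. Over all pairs of value and alternative, 536 kept both, 114 lost the call, 4 gained it and 3 changed sign. Those 3 were the uncalled OsPP2C55 difference in atm-1 at 70 Gy, at -0.02 and -0.09 without atm-1 control replicates 2 and 3 and -0.12 without atm-1 70 Gy replicate 2. With single libraries left out it ranged from -0.12 to 0.1433. The cause was not tested.

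Numbers of members called follow, here and in the paragraphs below. They come without the shares of all genes under the same setting, so a larger count alone is not a result about the members. Library weights, whose estimation stopped before convergence in 1 set, gave 28 for ATM at 70 Gy, 6 for atm-1 at 70 Gy, 6 for that interaction, 12 for atm-1 against ATM at 70 Gy, 54 in cold, 42 for top6a3, 4 for ku70 at 40 Gy, 1 for ku70 against DJ untreated and 0 at 40 Gy. Leaving out the 2 libraries that stood apart, they were 5 for ATM at 70 Gy, 1 for the interaction, 42 in cold and 25 for top6a3. Cold in either line alone, added after seeing the data, gave 15. A pseudocount of 0.1 FPKM gave 1 for DJ at 40 Gy, 1 for the 40 Gy interaction, 1 for ku70 against DJ untreated, 5 for these at 40 Gy, and 18 members past a log2 of 1 in atr. Without the filter ku70 at 40 Gy gave 4. Limma-voom gave 12 for ku70 at 40 Gy, 4 for the 40 Gy interaction and 7 for ku70 against DJ at 40 Gy. Rescaling moved the all-gene median by over 0.1 in the 40 Gy interaction (from -0.27 to -0.39) and in ku70 against DJ at 40 Gy (from -0.14 to -0.26), and no count of members called by over 1.5 times.

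With 1 library left out, counts ranged from 1 to 2 for ATM at 70 Gy, 0 to 2 for atm-1 against ATM at 70 Gy, 0 to 1 for both interactions, 23 to 34 in cold, 6 to 8 for top6a3, 0 to 8 for ku70 at 40 Gy and 0 to 5 for ku70 against DJ at 40 Gy, and stayed at 0 elsewhere.

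The replicate block, fitted to the groups compared, gave 0 for ATM at 70 Gy, 0 for atm-1 against ATM at 70 Gy, 3 for ku70 at 40 Gy and 0 for ku70 against DJ at 40 Gy. The same groups without the block, added after seeing the data, gave 0 for atm-1 against ATM at 70 Gy, 11 for ku70 at 40 Gy and 0 for ku70 against DJ at 40 Gy. Deviations of same-numbered libraries correlated at -0.48 to 0.26, so the numbers are not taken to pair libraries. No paired analysis was possible for cold, top6a3 or the single pairs because an arm has 1 library. Few libraries and 4 residual degrees of freedom limit the 40 Gy comparisons.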
